A study of Mus musculus with 6 samples.

Results

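The regions described here had ATAC-seq signal in both liver NK cells and liver ILC1s, at a higher level in liver NK cells. They were chosen from their CPM (the fragments in a region per 1000000 fragments counted in all regions of that library) by 2 conditions. All 3 ILC1 libraries had at least 2 CPM, and the lowest of the 3 NK cell libraries was at least 2 but less than 8 times the highest of the 3 ILC1 libraries. Of 107945 regions, 1066 met both conditions, which is 0.988%. Because the choice used the levels of both cell types, the levels and fold changes of these regions are given as a description, without a test.

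The data come from an assay for transposase-accessible chromatin (ATAC-seq) with 3 libraries per cell type. All libraries were of C57Bl/6J genotype, titled control and without a named treatment, and the study's methods give male mice aged 24 weeks. Cells were sorted as NK1.1-positive and negative for markers of T cells, B cells and macrophages, with ILC1s CD49a-positive and NK cells CD49a-negative. As printed in the methods, both gates are CD49b-negative. The sources used here do not state whether a library came from 1 mouse or from several, so the spread between libraries may be technical. The regions carry a running number and no position or gene, so that the labelled cell types could not be checked against marker loci and no sequence is shown.

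NK cells and ILC1s together form the group 1 innate lymphoid cells. Both carry NK1.1 and express the transcription factor T-bet. NK cells also express Eomes, circulate and are strongly cytotoxic, whereas liver ILC1s are largely tissue-resident and express CD49a and CXCR6. In ATAC-seq the transposase Tn5 inserts adapters where DNA is accessible, mainly at promoters and enhancers. The regions described here had fragments of both cell types at unequal level, as opposed to regions nearly without fragments in one of them. A background level outside regions was not analysed here, so the floor of 2 CPM does not show that a region was open in ILC1s.

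The NK cell libraries, called NK-A, NK-B and NK-C below, held 11279588, 8526923 and 12302602 fragments in regions, and the ILC1 libraries ILC1-A, ILC1-B and ILC1-C held 6916979, 6103178 and 5687282. The letters are names only, and values are given in this order. Every NK cell library was deeper than every ILC1 library, so in the counts as deposited cell type cannot be told apart from depth or from a batch that follows it. When every library was thinned at random to the smallest total, the same conditions chose 1032 regions, of which 950 were among the 1066.

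The summed signal of the 1066 regions was compared between libraries first. In NK cells they took 3.01%, 2.85% and 2.97% of all fragments in regions. In ILC1s they took 0.798%, 0.784% and 0.801% of them. The shares were 2.94% ± 0.0860 in NK cells and 0.795% ± 0.00945 in ILC1s (SD, n = 3 each), a ratio of 3.71. The groups were far apart and libraries of one cell type lay close together.

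The level of a single region was moderate in both cell types. The median CPM over the 1066 regions was 21.4, 20.2 and 21.3 for NK cells and 4.92, 4.75 and 5.27 for ILC1s. For comparison, the 32043 regions with at least 2 CPM in all 6 libraries had medians between 14.2 and 15.5 CPM in NK cells and between 15.8 and 16.2 CPM in ILC1s. Against that set, the typical chosen region was thus higher in NK cells and lower in ILC1s. Ranked by mean CPM among all 107945 regions, their median percentile was 87.8 in NK cells and 73.3 in ILC1s. The lowest percentiles were 74.7 and 61.8, since the conditions of the choice keep weaker regions out.

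**Figure D1:**
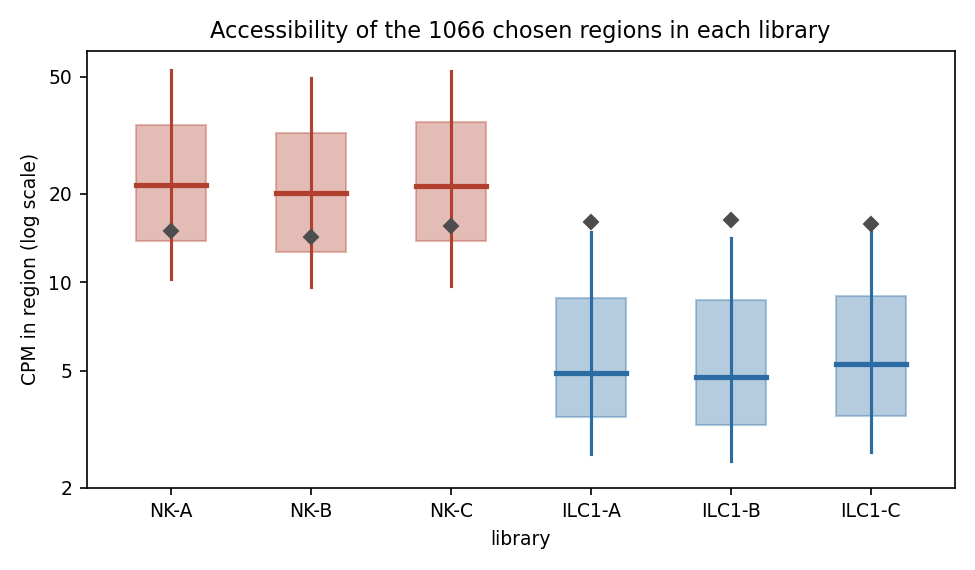
CPM (log scale) of the 1066 regions in each of the 6 libraries. Boxes span the 25th to 75th percentile with the median as a thick line, thin lines span the 10th to 90th percentile, and grey diamonds mark the median of the 32043 regions with at least 2 CPM in all libraries. The NK cell medians lie between 20.2 and 21.4 CPM and the ILC1 medians between 4.75 and 5.27 CPM.

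The depth behind these values differed between the cell types. A chosen region held a median of 242, 172 and 262 fragments in NK cells and of 34, 29 and 30 fragments in ILC1s. At these medians the counting error alone is between 6.18% and 7.62% in NK cells and between 17.1% and 18.6% in ILC1s. The lowest count of any chosen region was 12 fragments in ILC1s and 46 in NK cells. The counting error of a ratio at these medians comes mainly from the ILC1 level.

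Among all regions, the 1066 were 1 step of a graded series. Of the 37426 regions with at least 2 CPM in every ILC1 library, 39 had an NK cell level at least 8 times the highest ILC1 level in every library. A further 7443 were separated in the same direction by less than 2 times, and in 13884 the libraries of the cell types overlapped. In the other direction 10680 regions were separated by less than 2 times and 4314 by 2 times or more. The floor applied to ILC1 libraries only, so the counts of the 2 directions are not a comparison of the cell types. The chosen regions made up 2.85% of the 37426. With the cell types exchanged, the same conditions chose 1487 regions that were more open in ILC1s.

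In the edgeR quasi-likelihood test over all 106376 regions with at least 1 fragment, 1066 of the 1066 regions were called higher in NK cells (thresholds: adjusted p-value 0.05, fold change 1.5). Of all tested regions 15.6% were called in that direction and 15.9% higher in ILC1s. By the choice itself, all 3 NK cell libraries lay above all 3 ILC1 libraries in every chosen region, as they did in 22% of all tested regions. Since the choice used this contrast, nothing is read from these counts. The edgeR log2 fold change (NK cells over ILC1s) ran from 1.10 to 3.65 with a median of 1.88, beside a median of -0.02 over all tested regions. Of the 7443 regions separated by less than 2 times, 3531 were called in the same direction.

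More of the 1066 regions lay in the lower than in the upper part of the permitted range. The ratio of the lowest NK cell to the highest ILC1 library was between 2 and 2.5 in 440 regions, between 2.5 and 3 in 239, between 3 and 4 in 207, between 4 and 6 in 127, and between 6 and 8 in 53. Its median was 2.68. The ratio of the group means, which does not turn on the most extreme libraries, had a median of 3.54 and reached 11.9. In the 1487 regions of the exchanged rule, the corresponding median ratio of means was 3.29, and 21 of them had a lowest-to-highest ratio between 6 and 8.

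The ratio was higher where the ILC1 level was low. In the 535 regions with a mean ILC1 level from 2 to 5 CPM the median ratio of means was 3.77. It was 3.48 in the 315 regions from 5 to 10 CPM, 3.02 in the 156 regions from 10 to 20 CPM, and 2.76 in the 60 regions of 20 CPM or more. Over the 1066 regions, Spearman's rho between the mean ILC1 level and the ratio of means was -0.27, given as a description since all points share the same 6 libraries and the ILC1 level enters both measures. The levels of the cell types themselves went together, with a rho of 0.83 between the NK cell and the ILC1 mean, within the limits that the choice sets on their ratio. The share of chosen regions fell with the ILC1 level, which is itself part of the choice. They were 6.15% of the 8697 regions with at least 2 CPM in every ILC1 library and a mean ILC1 level under 5 CPM, but 0.427% of the 14044 such regions of 20 CPM or more. By mean NK cell level the share was 1.58% from 5 to 10 CPM, 6.40% from 10 to 20 CPM, 5.78% from 20 to 50 CPM and 1.98% at 50 CPM or more.

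**Figure D2:**
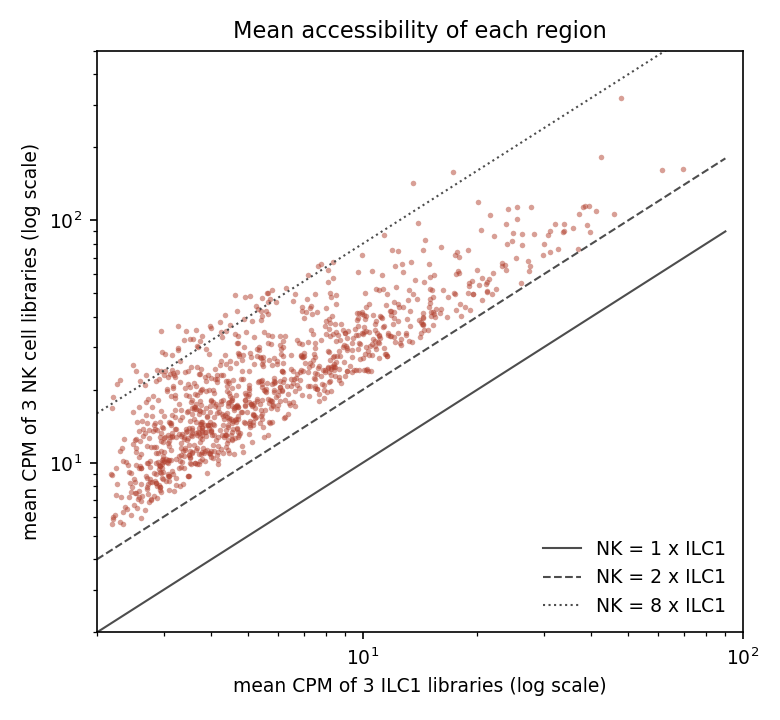
Mean CPM of the 3 NK cell libraries (vertical, log scale) against the mean CPM of the 3 ILC1 libraries (horizontal, log scale) for each of the 1066 regions, with lines at ratios of 1, 2 and 8. The points run along the diagonal above the line for a ratio of 2 and thin out towards high ILC1 levels, with 60 regions at a mean ILC1 level of 20 CPM or more.

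The most open of the 1066 regions by mean NK cell level were peak_50, peak_41898 and peak_52960, and the first 2 varied widely between libraries of one cell type. In peak_50 the NK cell libraries had 293, 434 and 232 CPM, whereas ILC1s had 78.5, 35.1 and 29.5 CPM. The level of ILC1-A was thus far above that of the other ILC1 libraries, and peak_50 had the largest relative spread of all 1066 regions, with a coefficient of variation (CV, SD over mean) of 56.2% in ILC1s. The 5 regions on either side of it by running number were called in neither direction.

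In peak_41898 the NK cell libraries had 214, 227 and 106 CPM and the ILC1 libraries 31.4, 47.7 and 48.4 CPM. Here NK-C was well below the other NK cell libraries but still above all ILC1 libraries. In peak_52960 the values were 170, 151 and 167 CPM in NK cells and 73.9, 70.5 and 64.9 CPM in ILC1s, and both groups were tight. Its means of 163 ± 9.78 and 69.7 ± 4.54 CPM (SD, n = 3 each) gave a ratio of 2.33, near the lower bound.

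Among the chosen regions, whose ratio is kept under 8, the largest ratio of the lowest NK cell to the highest ILC1 library belonged to peak_52564, followed by peak_59627 and peak_21979. In peak_52564 the NK cell libraries had 166, 143 and 168 CPM and the ILC1 libraries 17.9, 16.2 and 17.6 CPM. This gave means of 159 ± 14.0 and 17.2 ± 0.902 CPM (SD, n = 3 each) and a ratio of means of 9.21, so that a strongly open region in NK cells kept a clear ILC1 level. The other two were weaker regions. The levels of peak_59627 were 21.6, 19.2 and 22.3 CPM in NK cells and 2.17, 2.13 and 2.46 CPM in ILC1s, which there stands for 15, 13 and 14 fragments. The levels of peak_21979 were 27.7, 25.8 and 29.6 CPM in NK cells and 3.18, 2.95 and 3.34 CPM in ILC1s.

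Spread was ranked by the larger of the 2 within-group CVs, and the 3 regions lowest in this ranking had small ratios. In peak_5313 the NK cell libraries had 18.0, 18.1 and 17.7 CPM and the ILC1 libraries 7.66, 7.70 and 7.74 CPM, a CV of 1.01% and 0.482%. In peak_89366 they had 41.8, 43.0 and 42.8 CPM and 17.3, 17.9 and 17.6 CPM. In peak_21109 they had 55.1, 53.8 and 56.4 CPM and 26.0, 25.9 and 26.2 CPM. All 3 had ratios of means between 2.12 and 2.42. The CVs of these regions are below the counting error, and the regions were picked as the lowest of 1066 by that ranking. They therefore do not stand for the precision of the assay.

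At the other end of the spread, the ILC1 libraries differed most. In peak_106675 ILC1-B had 6.72 CPM against 2.89 and 2.64 CPM in the others, while NK cells had 23.3, 19.4 and 24.1 CPM. In peak_70720 the ILC1 libraries had 9.83, 3.11 and 5.63 CPM, while NK cells had between 24.6 and 27.6 CPM. The NK cell libraries were close together in both, and the ILC1 values rested on 15 to 68 fragments.

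At the lower bound, peak_64225, peak_106787 and peak_63341 had the smallest ratios, all 2.00 after rounding. The first region outside, peak_68186, had 16.3, 11.1 and 16.2 CPM in NK cells and 4.48, 5.57 and 4.92 CPM in ILC1s, and its ratio of means was 2.91. It was followed by peak_10562 and peak_864, with ratios of means of 2.67 and 2.26. These differ little from the regions just inside, whose ratios of means were 2.78, 2.84 and 2.29. Between ratios of 2 and 2.1 lay 116 of the 1066 regions, and between 1.9 and 2 lay another 116 regions that were not chosen.

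Just beyond the upper bound were peak_82261, peak_87381 and peak_35020, with lowest-to-highest ratios of 8.04, 8.11 and 8.15. Just below the floor were peak_51999, peak_37073 and peak_51751, where ILC1-B held 12 fragments, or 1.97 CPM, in each. Their NK cell means were between 17.2 and 31.1 CPM, within the range of the chosen regions. Of the 1066 regions, 211 had a lowest ILC1 level under 2.5 CPM. The floor of 2 CPM thus cuts through a continuous range of levels.

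The spread within a cell type was compared with the counting error next. Over the 1066 regions the median CV between the 3 libraries was 8.99% in NK cells and 16.0% in ILC1s. The median error from counting alone was 6.64% and 18.0%. The choice itself limits the spread within a group, so the ILC1 spread is not read as counting error alone. The mean chi-square per degree of freedom of the counts, which is 1 for counting error alone, was above 1 in both, at 3.92 in NK cells and 1.62 in ILC1s. It was 2.87 and 1.62 over the 32043 regions with at least 2 CPM in all libraries. The value grows with depth, so that it is not a comparison of the cell types.

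The lowest NK cell value, which enters the ratio, came most often from 1 library. NK-B was the lowest of its group in 592 of the 1066 regions, or 55.5%, NK-C in 281 and NK-A in 193. Over the 32043 regions with at least 2 CPM in all libraries, NK-B was the lowest in 46.2%. With TMM scaling, which adjusts the totals for composition, it was still the lowest in 51.6% of the 1066. Among the ILC1 libraries the highest value was spread evenly, over 344, 347 and 375 regions.

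Whether the difference appeared in a library that had no part in the choice was examined by leaving out each library in turn. The same conditions on the other 5 libraries chose between 1121 and 1394 regions, and the left-out library was then read in those regions. The libraries it was compared with did take part in the choice, so a high share follows in part from the choice. A left-out NK cell library was at least 2 times the highest ILC1 library in 95.1% of 1121 regions for NK-A, in 83.7% of 1254 for NK-B and in 90.9% of 1171 for NK-C. For a left-out ILC1 library, the lowest NK cell library was at least 2 times as high in 88.0% of 1274 regions for ILC1-A, in 86.0% of 1394 for ILC1-B and in 88.5% of 1267 for ILC1-C. A wider base was all regions with at least 2 CPM in the ILC1 libraries used for the choice, whether or not the cell types differed there. In it the same difference was present in between 3.74% and 5.86%, depending on the library. For the left-out shares, the Wilson 95% intervals, which cover counting over regions only, were 93.7% to 96.2% for the highest and 81.6% to 85.7% for the lowest.

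In nearly all of the chosen regions the left-out library fell on the same side. It lay on the other side of, or level with, the nearest library of the other cell type in 1 region each for NK-C, ILC1-B and ILC1-C, and in 0 regions for NK-A, NK-B and ILC1-A. Over all regions with that ILC1 level, the NK cell side was higher in between 30.4% and 32.8% in the same comparisons. The median ratio in the left-out library was between 2.64 and 3.14. These values have no test, since 1 library is compared each time and regions of a library are not replicates.

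**Figure D3:**
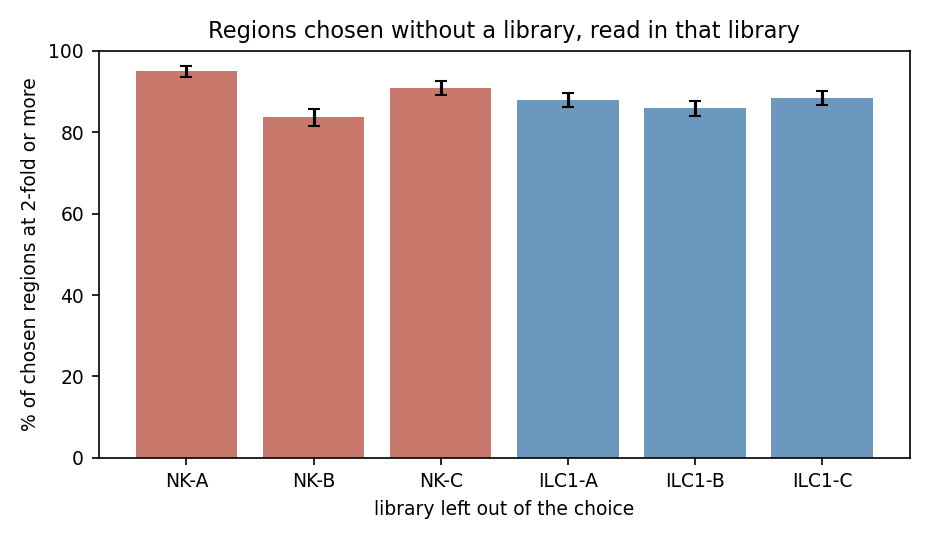
Percent of the regions chosen from 5 libraries in which the sixth, left-out library kept a difference of 2 times or more from the nearest library of the other cell type. Bars give the left-out NK cell (red) and ILC1 (blue) libraries, starting at 0, and error bars are Wilson 95% intervals over regions. The values lie between 83.7% and 95.1%, lowest for NK-B on these totals and, with TMM scaling, lowest for ILC1-B.

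The ILC1 level of the chosen regions was also set beside that of other regions strongly open in NK cells. In the 12745 regions with at least 20 CPM in every NK cell library, ILC1-A, ILC1-B and ILC1-C held less than 8% of the NK cell mean in 156, 163 and 163 regions. The 1st percentile in these regions was 6.48%, 5.43% and 6.18% of the NK cell mean, and the median was 96.4%, 97.4% and 96.7%. In the reverse direction, the 1st percentile of NK-A, NK-B and NK-C was 17.4%, 16.7% and 20.4% of the ILC1 mean. This was over the 13166 regions with at least 20 CPM in every ILC1 library. In the 1066 regions the ILC1 libraries held a median of 27.7%, 27.5% and 28.4% of the NK cell mean, and the 10th percentile was between 14.1% and 15.2%. A small part of the regions with at least 20 CPM in every NK cell library thus had much lower ILC1 levels than the typical chosen region. Whether NK cells in the ILC1 sort added to these levels was not tested.

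The running number, which the choice did not use, grouped the chosen regions. Whether it follows genome position is not given in the sources used here. Of the 1066 regions, 150, or 14.1%, had another chosen region at the next lower or next higher number. Of the 2072 regions at a distance of 1 from a chosen one, 7.24% were chosen, while chosen regions were 0.988% of the table. Strongly measured regions may also lie near each other by number. Of the 32043 regions with at least 2 CPM in all libraries, 69.8% had a neighbour of that kind, where they were 29.7% of the table. With 2 neighbours looked at, such a percent exceeds the share of the table even without grouping. The 150 regions formed 50 pairs, 14 runs of 3 and 2 runs of 4, and the other 916 stood alone. Regions of the exchanged rule had another of their kind next to them in 17.1% of cases. In 10 equal parts of the running numbers the count of chosen regions was between 90 and 121, so that they were spread over the whole table.

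The neighbours that were not chosen were also often more open in NK cells. Of 1920 tested neighbours at a distance of 1, 789, or 41.1%, were called higher in NK cells by edgeR (adjusted p-value under 0.05, fold change over 1.5) and 139, or 7.24%, higher in ILC1s. Over all 105310 tested regions that were not chosen, the values were 14.7% and 16.1%. The excess in the direction of NK cells fell with distance, to 30.1% at a distance of 3, 22.8% at 10, 18.3% at 20 and 14.8% at 50. Calls in the direction of ILC1s rose over the same distances from 7.24% to 15.2%. At distances of 100 and more, the share called higher in NK cells was between 13.3% and 14.8%.

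The same held, at smaller size, for neighbours with signal in both cell types. Among neighbours at a distance of 1 with at least 2 CPM in all 6 libraries, 29.0% of 747 were called higher in NK cells and 6.29% higher in ILC1s, beside 12.1% and 16.2% of all 30977 such regions that were not chosen. Their median log2 fold change (NK cells over ILC1s) was 0.31, against 0.02 in all such regions. Around the 1487 regions more open in ILC1s the directions were exchanged, with 38.9% of neighbours called higher in ILC1s and 6.34% higher in NK cells. These are descriptions, since neighbouring regions of the same 6 libraries are not independent.

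**Figure D4:**
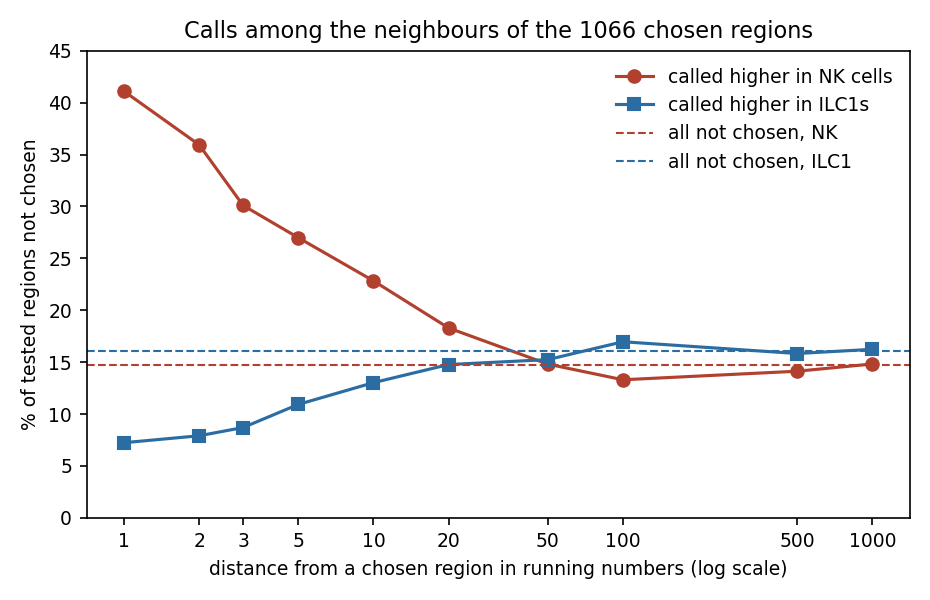
Percent of tested, not chosen regions that edgeR called higher in NK cells (red circles) or in ILC1s (blue squares), against their distance from a chosen region in running numbers (log scale). Dashed lines give the same percent over all tested regions that were not chosen, 14.7% and 16.1%. The NK cell curve falls from 41.1% at a distance of 1 to 14.8% at 50, and the ILC1 curve rises from 7.24% to 15.2%.

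The surroundings differed from region to region. Within 5 numbers on either side, 350 of the 1066 regions, or 32.8%, had at least 5 neighbours called higher in NK cells, against 6.63% of all 107945 regions. A further 342 had 3 or 4, 285 had 1 or 2, and 89, or 8.35%, had none, against 34.1% of all regions. At least 1 neighbour called higher in ILC1s was present for 48.9% of the chosen and for 67.1% of all regions. The calls for NK cells outnumbered those for ILC1s around 77.0% of the chosen and 39.8% of all regions. No neighbour called in either direction was found for 18 chosen regions, peak_50 among them, or 1.69%, beside 7.62% of all regions.

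The first of the runs of 4 was peak_11713 to peak_11716, all of modest level. In peak_11713 the NK cell libraries had 17.2, 18.1 and 15.8 CPM and the ILC1 libraries 5.49, 3.93 and 4.40 CPM. In peak_11714 they had 20.5, 16.1 and 23.0 CPM and 7.23, 4.26 and 5.10 CPM. The levels of peak_11715 were 13.0 ± 0.732 and 4.72 ± 0.576 CPM and those of peak_11716 were 10.3 ± 0.585 and 3.08 ± 0.846 CPM in NK cells and ILC1s (SD, n = 3 each). The 5 regions on either side of this run were weak, under 10 CPM in both means, of which some, such as peak_11718 with 5.64 ± 0.480 and 0.891 ± 0.491 CPM, differed in the same direction with an ILC1 level below the floor, whereas peak_11721, with 0.618 ± 0.341 and 1.72 ± 0.570 CPM, was called higher in ILC1s.

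The second run of 4, peak_90970 to peak_90973, was flanked by strong regions that did not share the difference. In peak_90971 the NK cell libraries had 34.5, 42.0 and 28.0 CPM and the ILC1 libraries 3.76, 4.26 and 5.10 CPM, and in peak_90972 they had 39.8, 57.0 and 29.8 CPM and 6.65, 6.06 and 8.09 CPM. NK-B was the highest in both. Shortly before the run, peak_90968 had 53.5 ± 4.68 CPM in NK cells and 53.4 ± 5.47 CPM in ILC1s, and just after it peak_90974 had 27.1 ± 2.19 and 23.0 ± 3.91 CPM (SD, n = 3 each). Neither was called. Of the weaker flanking regions, peak_90967, with 2.49 ± 0.788 and 8.27 ± 0.989 CPM, was called higher in ILC1s. In the direction of the run, peak_90965, with 1.00 ± 0.473 and 0.279 ± 0.216 CPM, was called higher in NK cells. The change from an even to an uneven level thus fell between neighbouring numbers.

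The surroundings of peak_52564, which had the largest lowest-to-highest ratio under the upper bound of 8, differed as a whole. All 10 regions within 5 numbers of it were called higher in NK cells, and 3 of them, peak_52561, peak_52563 and peak_52566, were themselves chosen. In peak_52563 the NK cell libraries had 34.7, 37.4 and 32.8 CPM and the ILC1 libraries 2.31, 2.13 and 4.40 CPM, and in peak_52566 they had 23.3, 24.6 and 24.3 CPM and 6.94, 5.73 and 10.9 CPM. Other regions nearby had the same direction and a much lower ILC1 level. Of these, peak_52565 had 15.5 ± 3.02 CPM in NK cells and 0.535 ± 0.250 CPM in ILC1s, and peak_52568 had 42.2 ± 4.02 and 1.76 ± 0.388 CPM (SD, n = 3 each), with lowest-to-highest ratios of 15.8 and 19.0. At the edge, peak_52559 had 44.0 ± 5.22 and 23.4 ± 2.03 CPM and stood outside the choice with a lowest-to-highest ratio of 1.54. Within 11 consecutive numbers the ILC1 level therefore ran from close to 0 to the 23.4 CPM of peak_52559.

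**Figure D5:**
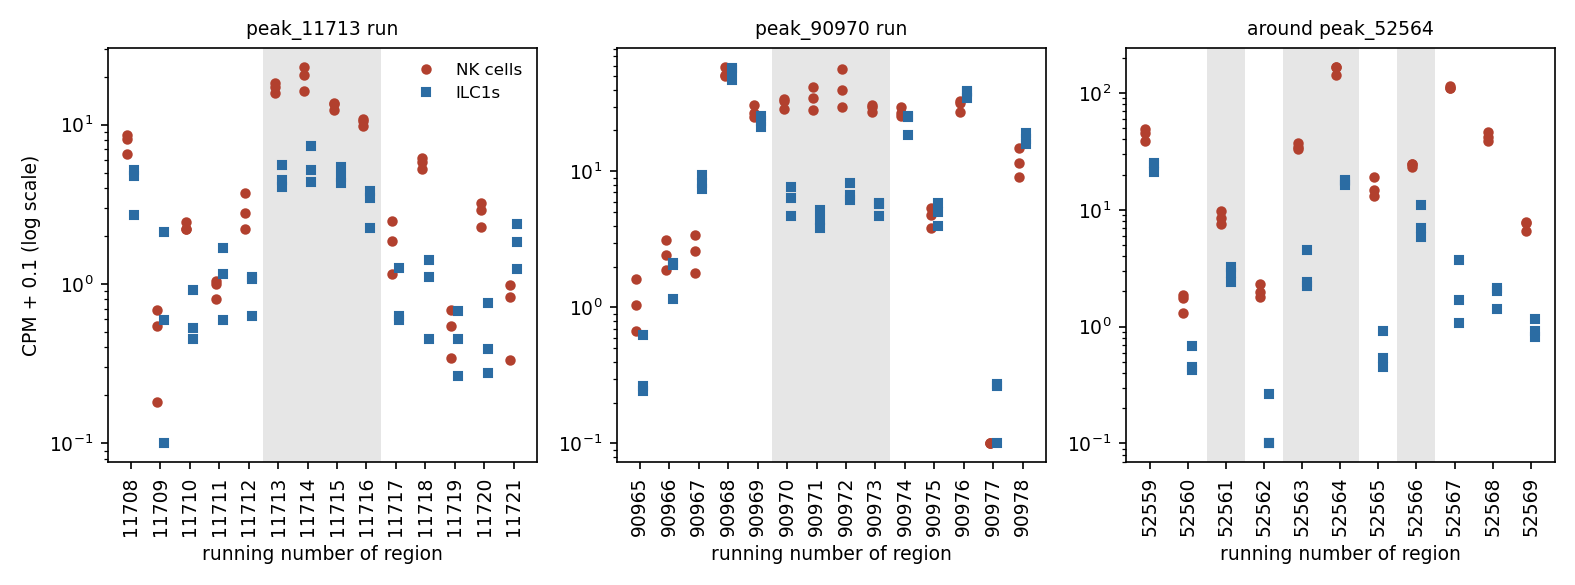
CPM + 0.1 (log scale) of each NK cell library (red circles) and ILC1 library (blue squares) by running number, for the runs starting at peak_11713 and peak_90970 with 5 regions on either side and for the 11 regions around peak_52564. Grey bands mark chosen regions. The strong regions beside the second run lie at like levels in both cell types, such as 53.5 and 53.4 CPM in peak_90968, whereas all 11 regions of the last panel are higher in NK cells.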

How the data were processed

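ATAC-seq libraries were made from sorted liver ILC1s and liver NK cells, 3 of each. Per the study's methods, the authors trimmed reads (Trimmomatic), aligned them to GRCm38 (Bowtie2), removed mitochondrial, duplicate and blacklisted fragments, called peaks per library (MACS), merged them (BEDtools) and counted fragments per merged region (featureCounts). The deposited values are raw counts, without normalization or pooling. A shift of fragment ends for the Tn5 offset is not given in the sources used here, and any such shift is small against a region.

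Columns give the cell type but no sample number, so libraries carry letters in column order. CPM were computed on totals over all regions. The test was the quasi-likelihood test of edgeR 4.0.16 under R 4.3.3 (TMM scaling, all 6 libraries, cell type as the only term, Benjamini-Hochberg adjustment over regions with at least 1 fragment). In simulated counts over 104612 regions this recovered 69.4% of 111 changes of 2-fold and 95.5% of 89 of 4-fold, with 3 false calls. The simulation gave all regions the same dispersion and changed only few regions, taken from the better covered ones. It therefore does not give the recovery in the data themselves. DESeq2 1.42.0, other scalings, filters, bounds and the omission of each library were alternatives. The conditions and comparisons were chosen with earlier results of these data known. Regions were named by rule: the 3 most open, with the highest and lowest ratio, with the lowest and highest spread, the first longest run, and the 3 next outside each bound. The other run of 4 and the surroundings of peak_52564, peak_50, peak_11713 and peak_90970 were added after their values were seen.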

Additional observations from a re-analysis of the deposited data

How the results depend on the processing

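The number of chosen regions, 1066, was 1146 with TMM scaling, 1102 with the size factors of DESeq2 and 1032 after thinning, and between 1121 and 1394 without each library in turn. It depends on the bounds by construction. It was 1670 with an ILC1 floor of 1 CPM, 414 with 5 CPM, 2166 with a lower bound of 1.5, 387 with 3, and 1964 when group means were compared. In the same order, the median log2 ratio of means, 1.82, became 1.92, 1.66, 1.37, 2.38 and 1.41, and the percent of regions next to another chosen one, 14.1%, became 18.0%, 6.28%, 18.7%, 11.4% and 16.9%. Without each library in turn these were between 1.73 and 1.78, and between 13.7% and 16.2%. With TMM scaling the left-out library kept a difference of 2 times in 89.0% of regions for NK-C, in 84.3% for NK-B and in 83.5% for ILC1-B, which was then the lowest in place of NK-B.

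The call of all 1066 regions as higher in NK cells, which the choice itself brings about, was made in each of the 7 other fits or thresholds and in the 6 fits without a library, where at most 22.3% of all tested regions were called, so that nothing is read from it. The 789 neighbours called higher in NK cells were 266 of 838 tested, or 31.7%, with at least 10 fragments in every library, which leaves fewer regions to test, beside 15.5% of all 37460 regions under that filter. Without each library in turn they were between 701 and 762, or 36.7% to 39.7% of those tested, beside 12.3% to 14.7% of all tested regions. Over all regions the calls for NK cells, 16576, fell to 5811 under that filter and to 10679 at thresholds of 0.01 for the adjusted p-value and 2 for the fold change, and those for ILC1s, 16918, to 7424 and 10995. No paired analysis was possible because column names cannot be tied to the numbered samples, and a replicate block on the bare column suffixes, whose meaning is not given, was not run. Depth limits the ILC1 levels, where a chosen region held a median of 29 to 34 fragments.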
